A study of Mus musculus with 6 samples.

Results

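The genes described here were 10 genes of the extracellular matrix, measured in primary mouse keratinocytes that lacked the transcription factors Sox4, Sox11 or both. The 10 were Pxdn, Vcan, Pcolce, Col4a1, Col4a2, Fn1, Tnc, Loxl2, Lox and Sparc, chosen by name and read from the 19 array probes whose design accession matched them, out of 21368 genes that could be named. Pxdn, Vcan and Pcolce were included because the study lists them as SoxC targets, a list built in part from the combined knockout keratinocytes of these arrays. Their combined knockout values are therefore given as a description, without a test, whereas their values in the knockouts of 1 factor and all values of the other 7 genes were tested. The study also kept to genes altered only in the combined knockout keratinocytes. A lack of calls for Pxdn, Vcan and Pcolce in the knockouts of 1 factor may therefore follow from that choice.

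RNA came from keratinocytes of newborn mice labelled as strain 129SvEx:C57BL/6, in which loss of Sox4 (Sox4 cKO), of Sox11 (Sox11 cKO) or of both (dcKO) was each compared with wild-type control cells. Both genes were floxed and were deleted by Krt14-Cre, a Cre transgene active in keratinocytes that came from FVB/N mice, so knockout cells also carried FVB/N background; what the wild-type cells carried of it is not stated. The study's methods also describe Sox12-/- mice in the same stock, and whether the cultured cells of any group carried that deletion is not stated. The cells were grown on J2 feeder cells, a fibroblast line, for 3 passages and then off them for at least 2. Each of 6 two-colour arrays held knockout RNA in one colour and wild-type RNA in the other, with 2 arrays per knockout labelled as biological replicates 1 and 2 and the dyes exchanged between them.

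Matrix proteins are secreted, trimmed and joined outside the cell. Type IV collagen chains, encoded by Col4a1 and Col4a2, form the network of the basement membrane under the epidermis, and peroxidasin, the product of Pxdn, is a secreted haem peroxidase that locks neighbouring collagen IV molecules together through sulfilimine bonds. Versican (Vcan) is a large chondroitin sulfate proteoglycan that binds hyaluronan, and Pcolce encodes an enhancer of the proteinase that removes the carboxyl end of fibrillar procollagens. Fibronectin (Fn1) and tenascin C (Tnc) are glycoproteins known from provisional and wound matrix, Sparc is a collagen-binding glycoprotein, and Lox and Loxl2 encode lysyl oxidases that cross-link collagens.

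The starts of the 3 target-list genes are shown because the study placed them among genes bound by the SoxC proteins. Each line holds the 250 bases before the annotated start in the RefSeq annotation of GRCm38.p6, 5′ to 3′ on the strand of the gene, with GC boxes (GGGCGG on either strand) in capitals.
Pxdn, chr12:29937786-29938035, plus strand: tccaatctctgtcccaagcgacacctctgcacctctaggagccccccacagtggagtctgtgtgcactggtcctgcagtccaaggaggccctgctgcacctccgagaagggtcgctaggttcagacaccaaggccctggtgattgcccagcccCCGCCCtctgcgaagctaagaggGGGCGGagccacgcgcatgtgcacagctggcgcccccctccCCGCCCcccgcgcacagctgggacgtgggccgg
Vcan, chr13:89742513-89742762, minus strand: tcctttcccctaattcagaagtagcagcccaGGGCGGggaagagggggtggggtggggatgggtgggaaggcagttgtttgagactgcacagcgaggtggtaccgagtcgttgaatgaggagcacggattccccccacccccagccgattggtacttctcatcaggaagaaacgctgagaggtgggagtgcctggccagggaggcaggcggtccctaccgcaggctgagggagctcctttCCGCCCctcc
Pcolce, chr5:137611405-137611654, minus strand: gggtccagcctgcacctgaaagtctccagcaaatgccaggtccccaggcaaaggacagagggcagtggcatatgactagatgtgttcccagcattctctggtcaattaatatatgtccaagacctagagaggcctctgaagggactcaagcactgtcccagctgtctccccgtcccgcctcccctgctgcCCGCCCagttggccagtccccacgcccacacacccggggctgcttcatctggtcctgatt
The Pxdn window was 68% G and C, that of Vcan 62.4% and that of Pcolce 58.8%, against a median of 52.4% over 32851 windows of the same length. The Pxdn window held 3 GC boxes, and 5 of the 7 members with a window in the table (Pxdn, Vcan, Pcolce, Col4a2 and Tnc) held at least 1, as did 32.7% of all windows. The CCAAT box (CCAAT on either strand) was present in 4 members (Pxdn, Vcan, Col4a1 and Col4a2) and in 33.8% of all windows. No member window held the core letters searched for SOX proteins, AACAAAG or AACAATG on either strand, which 8.12% of all windows held, and the windows do not cover distal regions. The AP-1 letters TGAGTCA on either strand were likewise absent from the member windows, against 4.46% of all. Col4a1 and Col4a2 lie head to head on chromosome 8, their annotated starts 21 bases apart on opposite strands. The annotated transcripts overlap between these starts.

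All values below are log2 ratios of knockout over wild-type signal on 1 array, or log2 levels of 1 colour of that array, after background correction and normalization, and each gene is represented by its brightest probe. Fold changes are means of the 2 arrays ± SD, and a gene was called when limma's Benjamini-Hochberg adjusted p, taken over all 55681 probes, was below 0.05 and the log2 fold change was beyond 1.5 in either direction. The deleted genes followed the labels: the 2 Sox4 ratios were -2.49 and -2.54 in Sox4 cKO and -2.23 and -2.81 in dcKO, and the 2 Sox11 ratios were -3.31 and -2.65 in Sox11 cKO and -3.07 and -3.79 in dcKO. The factor left intact was less even in Sox4 cKO, where the Sox11 ratios were 0.82 on replicate 1 and -0.97 on replicate 2. Wild-type Sox11 levels on those arrays were 8.68 and 10.74. In Sox11 cKO the Sox4 ratios were 0.06 and -0.35. Keratinocyte markers were well above background in every colour of every array (10 of 10), whereas 0 to 2 of 12 fibroblast markers were. The arrays do not distinguish fewer cells of a kind from less RNA per cell. Nothing in the labels says whether wild-type RNA was shared between arrays, and all 6 arrays were on 1 slide. The p-values measure only the spread left between these cultures after a dye term was fitted. That term follows the replicate number, so a difference between replicates 1 and 2 that the genotypes share is not counted in the spread.

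Of the 10 genes, 3 passed both thresholds in dcKO, all lower (Pxdn, Vcan and Fn1), and none passed in either knockout of 1 factor. For the genes on the target list, that absence may follow from the study's choice of genes altered only in dcKO. Over all named genes 1.39% were called in dcKO, 0.833% in the lower direction, 0.159% in Sox4 cKO and 0.178% in Sox11 cKO. Pxdn and Vcan were chosen through dcKO, so their calls add nothing to that choice. Fn1 is 1 of the 7 genes not on the target list. All 10 genes were nevertheless chosen with earlier results of these data known, so the Fn1 call is not independent of the choice either. Unadjusted limma p was below 0.05 for 4 of the 10 genes in Sox4 cKO (Pxdn, Vcan, Fn1 and Lox), against 10.5% of all genes. In Sox11 cKO it was below 0.05 for 5 (Pxdn, Vcan, Pcolce, Col4a1 and Fn1), against 10.7%. These counts mix directions: Lox in Sox4 cKO (0.53) and Col4a1 in Sox11 cKO (0.79) were higher, the others lower. Wild-type Lox was not well above background on either Sox4 cKO array. The median log2 fold change of the 10 was -0.32 in Sox4 cKO and -0.05 in Sox11 cKO, where the medians over all named genes were 0.004 and -0.004; it was -0.81 without Sox4 cKO replicate 1 and 0.06 without Sox4 cKO replicate 2, and -0.17 and -0.38 without Sox11 cKO replicate 1 and replicate 2, so neither size is settled. Both arrays were below 0 for 6 of the 10 genes in Sox4 cKO and 5 in Sox11 cKO, against 25.4% and 22.8% of all named genes. In dcKO, over the 7 genes not on the target list, the median was 0.01 against -0.01 over all named genes, and 2 of the 7 (Fn1 and Sparc) were below 0 on both arrays, against 32% of all named genes. All comparisons with dcKO use the same 2 dcKO arrays. Where ratios of dcKO are said below to lie apart from those of other arrays, this is a description. The share of all genes separated in that way was not counted.

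**Figure D1:**
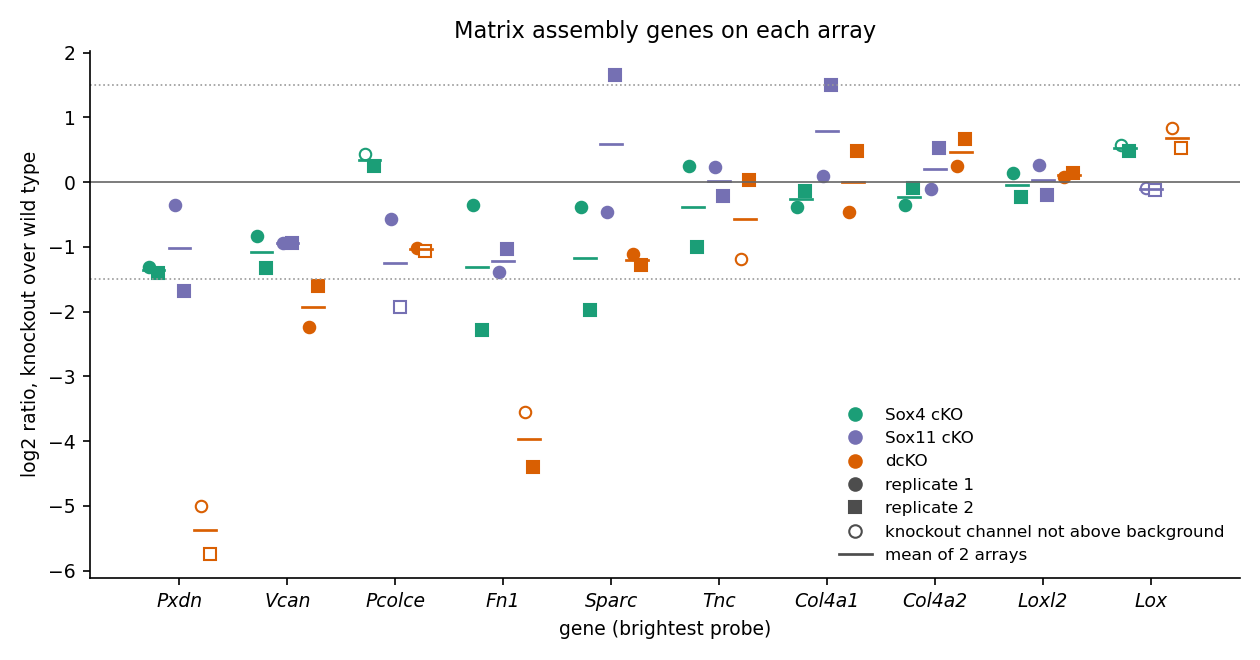
Log2 ratio of knockout over wild type (vertical axis) for the brightest probe of each of the 10 matrix genes (horizontal axis), with circles for replicate 1, squares for replicate 2, short lines for the mean of the 2 arrays, colours for the genotype and open symbols where the knockout channel was not well above background; dotted lines mark the fold threshold. Pxdn reaches -5.01 and -5.74 in dcKO and Fn1 -3.54 and -4.40, whereas the dcKO points of Col4a1 lie at -0.46 and 0.48.

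Pxdn had the most negative dcKO ratio of the set. On the dcKO arrays its knockout levels were 6.11 and 5.34 against wild-type levels of 11.11 and 11.08, ratios of -5.01 and -5.74. The probe was not well above background in either dcKO channel, so its measured difference of 41.4-fold is a lower bound for this probe only (mean log2 ratio -5.37 ± 0.52, SD, n = 2). The other Pxdn probe, described below, gave 5.79-fold. Both dcKO levels lay below every other channel of the 6 arrays, the lowest of which was 8.73 in Sox11 cKO and the wild-type channels running from 10.41 to 11.97.

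In the knockouts of 1 factor Pxdn gave smaller ratios. They were -1.31 and -1.40 in Sox4 cKO, a mean of -1.36 ± 0.07 (SE of the fit 0.21, limma adjusted p = 0.0995). In Sox11 cKO they were -0.36 and -1.69, a mean of -1.02 ± 0.94 (limma adjusted p = 0.222). All 4 ratios were negative, neither mean passed the threshold, and none of the 4 overlapped the dcKO ratios. The 2 knockouts of 1 factor were not separated from each other for Pxdn (Sox11 cKO minus Sox4 cKO 0.33, limma adjusted p = 0.926, with 0 of the 10 genes and 0.0187% of all genes called in that difference). As a description, dcKO differed in log2 fold change by -4.02 from Sox4 cKO, -4.35 from Sox11 cKO and -2.99 from their sum. With brightest probes, only Pxdn of the 10 genes was past both thresholds in these 3 differences (all genes: 1.03%, 0.786% and 0.585%). The other Pxdn probe, described below, was past both in none of them.

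The other Pxdn probe, which stayed above background in every channel, also had its lowest ratios in dcKO, with a smaller range. In levels the groups overlapped, with 6.81 on dcKO replicate 1 and 6.55 on Sox11 cKO replicate 2. This probe ordered the knockouts of 1 factor the other way, with means of -0.71 in Sox4 cKO and -0.96 in Sox11 cKO. Its ratios were -0.83 and -0.59 in Sox4 cKO, -0.47 and -1.44 in Sox11 cKO, and -2.44 and -2.63 in dcKO, a dcKO mean of -2.53 ± 0.14. Neither mean for 1 factor passed on this probe (limma adjusted p = 0.504 and 0.256). The 2 Pxdn probes thus set the dcKO decrease at different sizes, and the mean over both was -3.95.

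Vcan gave intermediate values on its brightest probe. Its ratios were -0.84 and -1.33 in Sox4 cKO, -0.95 and -0.94 in Sox11 cKO, and -2.24 and -1.61 in dcKO. All 6 were negative, and both dcKO ratios lay below those of the other 4 arrays. The means were -1.08 ± 0.35 in Sox4 cKO (limma adjusted p = 0.177) and -0.94 ± 0.00 in Sox11 cKO (limma adjusted p = 0.234), and the dcKO mean was -1.92 ± 0.44. As a description, the dcKO mean of Vcan on this probe differed from the sum of the other 2 means by 0.10. In levels dcKO and Sox11 cKO overlapped: dcKO channels stood at 7.27 and 7.79, Sox11 cKO channels at 7.41 and 7.75, and Sox4 cKO channels at 7.95 and 8.35, against wild-type channels from 8.36 to 9.68.

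The 3 Vcan probes differed. Another probe, A_55_P1960202, fell from 9.67 and 9.88 in wild type to 5.75 and 5.87 in dcKO, ratios of -3.92 and -4.01, and the first of those dcKO channels was not well above background. Its ratios for 1 factor were -1.32 and -2.19 in Sox4 cKO and -2.78 and -0.43 in Sox11 cKO, neither mean passing (limma adjusted p = 0.416 and 0.433), and on Sox11 cKO replicate 2 it was not well above background in either colour. The remaining probe, A_52_P1044655, was well above background in 1 of its 12 channels and gave ratios between -0.49 and 0.26.

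Pcolce, read by 1 probe, was dim and ordered the knockouts differently. Its ratios were 0.43 and 0.25 in Sox4 cKO, -0.56 and -1.93 in Sox11 cKO, and -1.01 and -1.07 in dcKO. The dcKO ratios fell between the 2 of Sox11 cKO, so that these groups overlapped, and the Sox4 cKO arrays were the only ones with positive values. Means were 0.34 in Sox4 cKO (limma adjusted p = 0.818), -1.25 ± 0.97 in Sox11 cKO (limma adjusted p = 0.172) and -1.04 ± 0.04 in dcKO, short of the fold threshold. Without Sox11 cKO replicate 1, Pcolce was called in Sox11 cKO (-1.87, limma adjusted p = 0.00284). Its levels ran from 4.87 to 7.63 over the 12 channels, and the knockout channel was not well above background on 1 array of each genotype. On Sox4 cKO replicate 1, which gave the ratio of 0.43, neither colour was well above background.

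**Figure D2:**
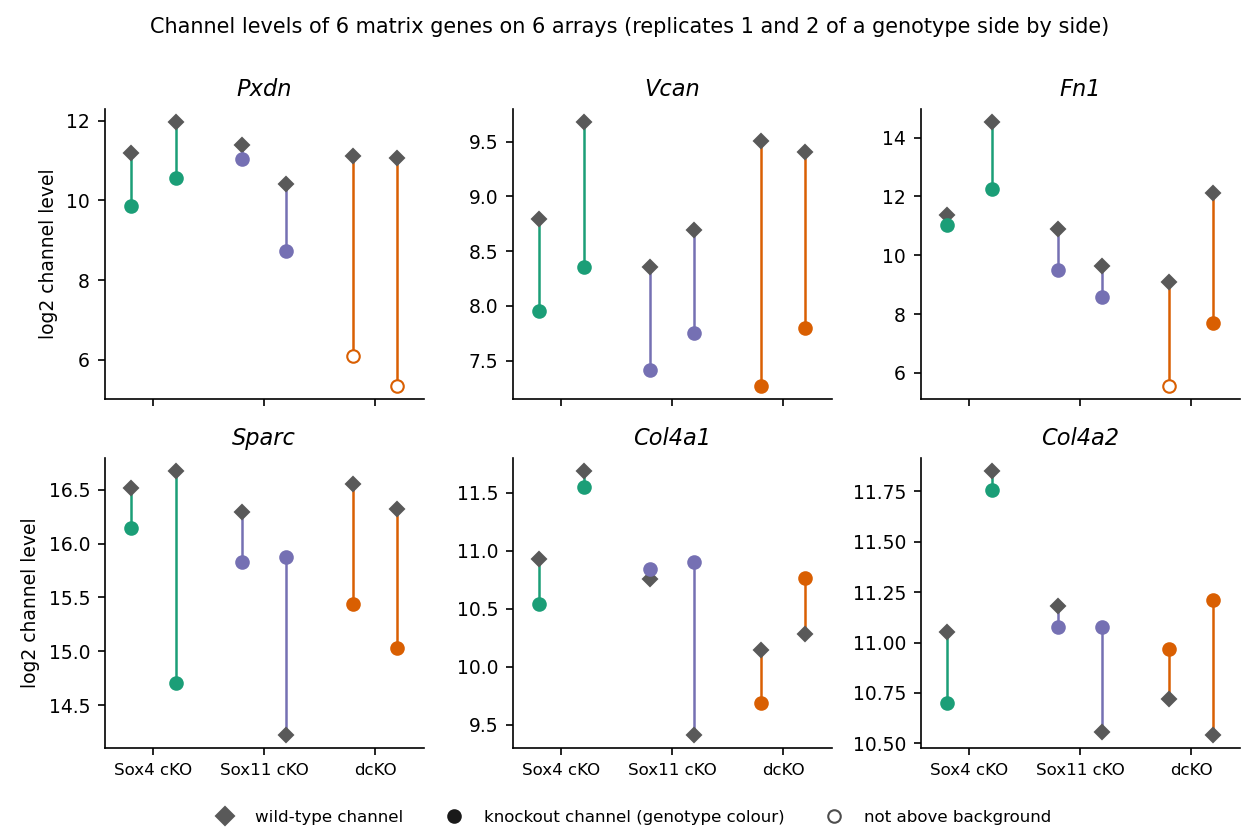
Log2 channel level (vertical axis, set separately for each gene and not starting at 0) of the brightest probes of Pxdn, Vcan, Fn1, Sparc, Col4a1 and Col4a2 on the 6 arrays by genotype, with circles for the knockout channel, grey diamonds for the wild-type channel, lines joining the 2 channels of an array and open circles where the knockout channel was not well above background. For Pxdn the dcKO channels at 6.11 and 5.34 stand apart from wild-type channels at 10.41 to 11.97, and for Fn1 the wild-type channels alone run from 9.09 to 14.53.

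Fn1 was the only one of the 7 genes outside the target list to be called in any comparison with wild type, and it fell in dcKO. Its dcKO levels were 5.54, not well above background, and 7.71, against wild-type levels of 9.09 and 12.11 on the same arrays. The ratios were -3.54 and -4.40, a mean of -3.97 ± 0.60 (95% interval -4.74 to -3.20), 15.7-fold lower (limma adjusted p = 0.00286). In Sox4 cKO they were -0.36 and -2.28, a mean of -1.32 ± 1.36 (limma adjusted p = 0.376), and in Sox11 cKO -1.39 and -1.03, a mean of -1.21 ± 0.25 (limma adjusted p = 0.386). All 6 ratios were negative and, as a description, the dcKO ratios did not overlap the other 4.

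The Fn1 fold changes of dcKO and of the knockouts of 1 factor were not separated at the threshold. The difference was -2.65 from Sox4 cKO (limma adjusted p = 0.0651) and -2.76 from Sox11 cKO (limma adjusted p = 0.0642), and dcKO differed from the sum of both by -1.44 (limma adjusted p = 0.417). Wild-type Fn1 levels spanned 5.44 between the 6 arrays, where the median span of 10688 genes was 0.88 and the 95th percentile 2.41; the highest wild-type level was on Sox4 cKO replicate 2 and the lowest on dcKO replicate 1. The dcKO call was lost with a background offset of 50 (-3.41, adjusted p = 0.0721), with Agilent's own processed signals (-5.52, adjusted p = 0.21), without dcKO replicate 1 (-4.01, adjusted p = 0.0875) and without dcKO replicate 2 (-3.93, adjusted p = 0.088), in limma each time. Without Sox11 cKO replicate 2 Fn1 was also called in Sox11 cKO (-2.08, limma adjusted p = 0.0228), and without Sox11 cKO replicate 1 all 3 differences of dcKO passed, that from additivity at -2.31 (limma adjusted p = 0.0123). The Fn1 differences of dcKO from Sox4 cKO and from Sox11 cKO also passed with the authors' table (limma adjusted p = 0.0272 and 0.0266), with median centring (0.0186 and 0.0221) and with only the arrays compared (0.000639 and 0.0309), the last being the same fits as without either array of the genotype not compared.

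Fibronectin, versican and Sparc are also products of fibroblasts, the kind of cell used as feeder. Of the 12 fibroblast markers, Pdgfrb, Thy1, Col1a1, Col3a1, Lum, Dpt, Prrx1 and Fap were not well above background in any channel, Pdgfra, Dcn and Twist1 were in 1 of 12 channels each, and Col1a2 was in 11 of 12, with a dcKO fold change of 0.43 (limma adjusted p = 0.469). The summed level of the list on the linear scale was 377 to 428 in the dcKO channels and 356 to 370 in the wild-type channels of the same arrays, and its part in the values of Fn1, Vcan and Sparc was not tested. Twist1 had a dcKO fold change of 0.77 (limma adjusted p = 0.0454).

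Sparc, whose probe was bright in every channel, gave negative dcKO values short of the threshold. Its ratios were -1.12 and -1.29 in dcKO, a mean of -1.20 ± 0.12 (limma adjusted p = 0.378). In Sox4 cKO they were -0.38 and -1.97 (mean -1.18 ± 1.13, limma adjusted p = 0.676), and in Sox11 cKO -0.47 and 1.66 (mean 0.59 ± 1.5, limma adjusted p = 0.945). The 2 Sox11 cKO arrays pointed opposite ways: the wild-type channel of replicate 2 stood at 14.22, while the other 5 wild-type channels stood between 16.30 and 16.68. Without Sox11 cKO replicate 1 Sparc was called higher in Sox11 cKO (2.10, limma adjusted p = 0.0114). Another Sparc probe gave a dcKO mean of -1.02 (limma adjusted p = 0.142), and the dimmest gave 0.14 (limma adjusted p = 0.818).

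Tnc varied more between wild-type cultures than between genotypes. Its wild-type levels ran from 5.46 to 9.53. The ratios were 0.25 and -1.0 in Sox4 cKO, 0.24 and -0.22 in Sox11 cKO, and -1.18 and 0.04 in dcKO, with opposite signs in every pair. The limma adjusted p was 0.882 in Sox4 cKO, 1 in Sox11 cKO and 0.62 in dcKO, where the mean was -0.57, and the other Tnc probe gave -0.10 in dcKO (limma adjusted p = 0.925).

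Col4a1 and Col4a2, the major collagen IV chains, were not called in any comparison. Col4a1 levels in dcKO were 9.68 and 10.76 against 10.15 and 10.29 in wild type, ratios of -0.46 and 0.48 and a mean of 0.01 (95% interval -0.48 to 0.50, limma adjusted p = 0.996), a direction that turned to -0.54 when arrays were centred on their median without loess. Col4a2 levels in dcKO were 10.97 and 11.21 against 10.72 and 10.54, ratios of 0.25 and 0.67 and a mean of 0.46 (95% interval 0.11 to 0.81, limma adjusted p = 0.218), which turned to -0.09 under the same centring. The dcKO ratios of both chains lay within or next to those of the other arrays, far from the Pxdn ratios of -5.01 and -5.74.

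In the knockouts of 1 factor the collagen IV ratios were small on 3 of 4 arrays. Col4a1 gave -0.38 and -0.14 in Sox4 cKO (mean -0.26, limma adjusted p = 0.843) and 0.09 and 1.49 in Sox11 cKO (mean 0.79, limma adjusted p = 0.363). Col4a2 gave -0.35 and -0.10 in Sox4 cKO (mean -0.22, limma adjusted p = 0.807) and -0.11 and 0.52 in Sox11 cKO (mean 0.21, limma adjusted p = 0.922). On Sox11 cKO replicate 2, which had the highest of these 4 ratios for both chains, the wild-type Col4a1 level was 9.41, the lowest wild-type level of the 6 arrays.

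The lysyl oxidases were dim or flat. The Loxl2 ratios ran from -0.23 to 0.27 over the 6 arrays, and its dcKO mean of 0.11 (limma adjusted p = 0.884) turned to -0.24 under median centring; its other 2 probes were below background. Lox was not well above background in 11 of 12 channels, with dcKO ratios of 0.84 and 0.52 (mean 0.68, limma adjusted p = 0.0727) and a Sox4 cKO mean of 0.53 (limma adjusted p = 0.452), so no level can be compared for it.

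**Figure D3:**
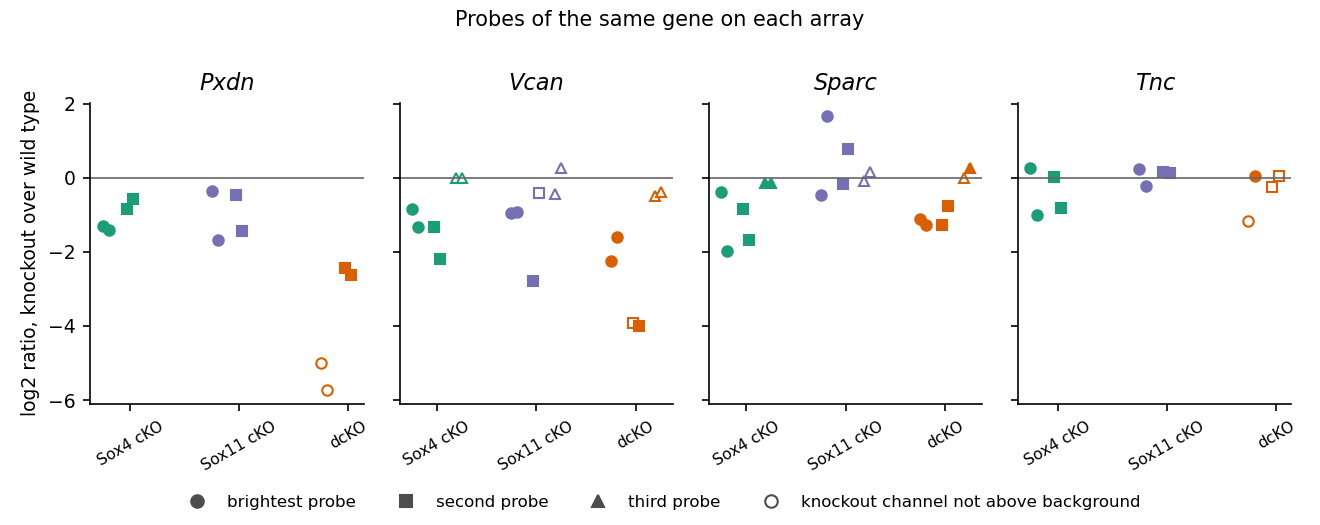
Log2 ratio of knockout over wild type (vertical axis) on each array by genotype (horizontal axis) for each probe of Pxdn, Vcan, Sparc and Tnc, with circles, squares and triangles for the probes in order of brightness and open symbols where the knockout channel was not well above background. In dcKO the brighter Pxdn probe lies at -5.01 and -5.74 and the other at -2.44 and -2.63, and the Vcan probes run from -0.38 for the dim probe to -4.01.

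The wider matrix was set beside these genes through 9 lists holding 137 other named genes. In dcKO 4 of the 137 were called lower (Pcolce2, Has2, Efemp1 and Ltbp3) and 4 higher (Col4a5, Tll1, Loxl4 and Tgm2), against 0.833% and 0.562% of all named genes. Their median dcKO fold change was -0.02. In Sox4 cKO 1 was called (Fkbp10, lower) and in Sox11 cKO 1 (Col4a5, lower). With an offset of 50 or with Agilent's processed signals, none of the 8 dcKO calls remained, nor did they without dcKO replicate 1 or without dcKO replicate 2, each of which leaves dcKO a lone array. Without the dye term, which is the replicate block, Col4a5, Pcolce2, Loxl4, Tgm2 and Has2 missed the adjusted p (0.0527 to 0.128 in limma). Pcolce2 and Loxl4 also missed it among probes above background (0.06 and 0.0594), with the dye effect subtracted first (0.0511 and 0.0531) and with separate colours (0.263 and 0.0591), as did Col4a5 with separate colours (0.323), Pcolce2 with the mean of its probes (0.0519) and Loxl4 without Sox4 cKO replicate 1 or replicate 2 (0.072 each). Median centring took Tll1 to 1.21 and Tgm2 to 1.18, under the fold threshold. Fkbp10 in Sox4 cKO was not called without replicate 1 (-3.02, limma adjusted p = 0.121), without replicate 2 (-2.63, limma adjusted p = 0.105), with processed signals (0.658) or with separate colours (0.562). Col4a5 in Sox11 cKO was not called with an offset of 50 (-1.35, limma adjusted p = 0.269), with processed signals (0.586), without the block (0.369), with separate colours (0.401) or with only the arrays compared (0.805).

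Among basement membrane genes other than the members, 1 of 19 was called in dcKO, the collagen IV chain Col4a5. Col4a5, the chain paired with Col4a6 under epidermis, had wild-type levels of 5.15 and 4.76 on the dcKO arrays, neither well above background, and stood at 7.31 and 5.92 in dcKO, at least 2.94-fold higher (limma adjusted p = 0.00373). On the Sox11 cKO arrays Col4a5 instead gave ratios of -1.11 and -2.27 (mean -1.69, limma adjusted p = 0.0169), with wild-type levels of 6.29 and 9.37. Of the 19 genes of this list other than the members, 5 more passed the adjusted p but not the fold threshold: Hspg2 (perlecan) at -1.12, Lamb1 at -1.29, Agrn (agrin) at -1.02, Lamb2 at 1.35 and Col4a4 at 1.01, where 2.2% of all named genes did so. The median of the 19 was -0.20.

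Among procollagen enzymes, Pcolce2, a relative of Pcolce, fell in dcKO with ratios of -1.68 and -1.48 (mean -1.58, limma adjusted p = 0.045). In Sox4 cKO its ratios were 3.13 and 1.37, so that the 2 genotypes did not overlap. Tll1, which encodes a procollagen C-proteinase of the Bmp1 family, rose by a mean of 1.61 in dcKO (ratios 1.23 and 1.99, limma adjusted p = 0.0036); its other probe gave 0.61, and the mean of both, 1.11, was under the fold threshold. Fkbp10, a collagen chaperone, fell in Sox4 cKO with ratios of -2.93 and -2.72 (mean -2.83, limma adjusted p = 0.0027); its wild-type levels on those arrays were 13.51 and 13.73, against 6.95 to 11.26 on the other 4. Serpinh1 (-1.01) and P4ha2 (-0.97), both needed for collagen folding, and Plod2 (0.45) and Crtap (0.48) were the most negative and the most positive pairs of uncalled dcKO values among genes of this list above background in both colours of both dcKO arrays. The median of the 20 genes other than Pcolce was 0.12, and 1 of them (Fkbp10 in dcKO, -0.90) passed the adjusted p alone.

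Cross-linking enzymes other than the members numbered 4, and 2 rose in dcKO. Tgm2, tissue transglutaminase, had dcKO ratios of 1.06 and 2.35 (mean 1.71, limma adjusted p = 0.0128), and its ratios on the other 4 arrays were 0.68 to 1.4. Loxl4, a lysyl oxidase, had dcKO ratios of 1.24 and 2.28 (mean 1.76, limma adjusted p = 0.0442), with the wild-type channel of replicate 2 not well above background. All 6 Tgm2 ratios were positive, while the dcKO ratios of Loxl4 lay above the other 4.

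In the versican and hyaluronan network 1 of 19 genes other than Vcan was called in dcKO. Has2, a hyaluronan synthase, had wild-type levels of 8.09 and 6.10 and was not well above background in dcKO, at least 3.64-fold lower (limma adjusted p = 0.0107), with ratios of -1.72 and -0.79 in Sox11 cKO. Cd44, a hyaluronan receptor, had a dcKO mean of -0.23. The versican-cleaving proteinases Adamts1 and Adamts15 had dcKO means of 1.05 and 1.67, neither called (limma adjusted p = 0.528 and 0.226). The median of the 19 was -0.03.

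Elastic fibre and microfibril genes held 2 of the 4 lower calls. Efemp1 (fibulin 3) had dcKO ratios of -2.91 and -3.21 (mean -3.06, limma adjusted p = 0.015) and ratios of -0.58 to 1.42 on the other 4 arrays. Ltbp3, which binds latent TGF-beta, had dcKO ratios of -2.29 and -2.58 (mean -2.44, limma adjusted p = 0.00389) and ratios of -0.36 to 0.36 elsewhere. For both genes the dcKO arrays stood apart from the other 4. Fbln1 (fibulin 1) passed the adjusted p alone (-1.42), and the median of the 17 genes was -0.00.

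No gene was called in dcKO among 16 fibrillar and associated collagens (median 0.04), 8 small leucine-rich proteoglycans (median 0.02), 18 matricellular glycoproteins other than the members (median 0.00) or 16 matrix receptors (median -0.07). Unadjusted limma p was below 0.05 for 6, 0, 3 and 5 genes of these lists in turn, against 19.8% of all named genes. Their largest dcKO values above background included Col16a1 at -0.80, Col7a1, the anchoring fibril collagen, at 0.61, and Ecm1 at -1.08. Of the integrins, Itgb6 passed the adjusted p alone (1.44, limma adjusted p = 0.0361), and Itga3 did not pass (-1.29, limma adjusted p = 0.0782).

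**Figure D4:**
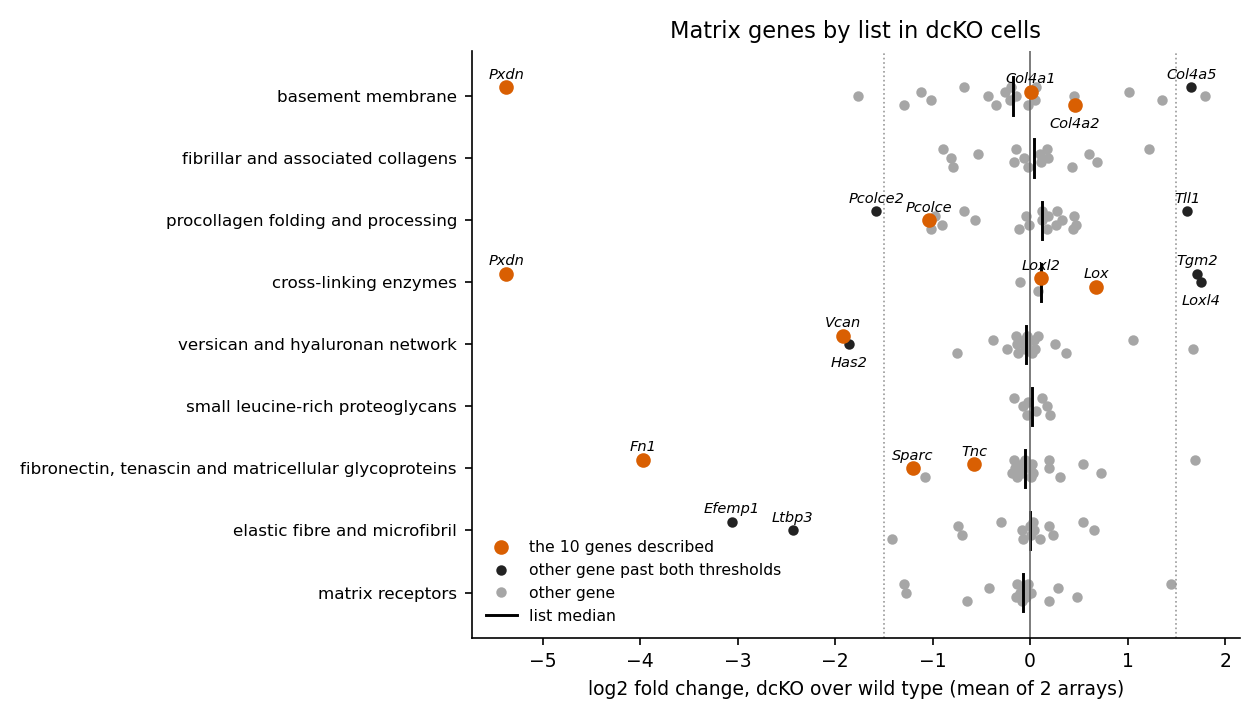
Mean log2 fold change in dcKO (horizontal axis) of each gene of the 9 matrix lists (vertical axis), the mean of 2 arrays, with the 10 genes described here in orange, other genes past both thresholds in black, the rest in grey, a black line at each list's median with members included and dotted lines at the fold threshold; Pxdn is on 2 lists. The list medians lie between -0.17 and 0.12, while Pxdn lies at -5.37 and Fn1 at -3.97.

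Across the 12 channels of the 6 arrays, the genes whose levels followed those of Pxdn most closely among 12880 genes were Ttyh3 (Pearson's r = 0.965), Evl (0.963), Adgra3 (0.95), Bcl7a (0.941) and Plekho1 (0.938). These values are a description over channels that share arrays, and Pxdn was chosen through its dcKO level. Fn1 ranked 179 in likeness to Pxdn (r = 0.788), whereas r was 0.651 for Vcan, 0.298 for Col4a1 and 0.067 for Col4a2. Those most like Vcan were Capsl (r = 0.898), Gpc4 (0.886), Slc1a7 (0.877), Irs1 (0.873) and Slc39a6 (0.872). The dcKO fold changes of the 5 genes most like Pxdn ran from -3.60 to -1.83, and those of the 5 most like Vcan from -2.82 to -0.20.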

How the data were processed

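Two-colour Agilent mouse arrays were read with Feature Extraction 11.0.1.1 from Agilent, per the submitters' processing notes, and the deposited intensity values are median spot and background brightness per colour; a deposited series table holds log2 ratios that the authors normalized with limma. Per the file headers the array design follows mm9. The 10 genes and all lists were chosen with earlier results of these data known.

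Median intensities were background-corrected (normexp, offset 16), 3671 control spots were left out of 62976, 194 to 288 outlier spots per array were set missing, and ratios were normalized by loess, turned to knockout over wild type and averaged to 55681 probes. Of 29786 probes with a RefSeq accession, 95.1% were named. limma 3.58.1 in R 4.3.3 fitted all 6 arrays with a genotype effect and a dye term (2 residual degrees of freedom, prior 5.37), since spread could not be estimated from 2 arrays. The dyes follow the replicate number, so the dye term is also the replicate block; same-numbered arrays deviated together (correlations 0.316, 0.244 and 0.125). Sox11 cKO minus Sox4 cKO was added after the data were seen. Levels of a single colour take the within-array ratio and the mean intensity, after the mean intensities were quantile-normalized between the 6 arrays.

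Between 35.1% and 45% of probes were well above background per colour, and none was saturated; the number of arrays limits precision. A gene not well above background in a group gives only a bound on the fold. The bound uses its measured level or, where higher, the lowest signal among probes above background on each array. Named were the 10 members, every other listed gene called in a genotype comparison, up to 2 listed genes per direction and list with the largest dcKO ratio among those above background in both colours of both dcKO arrays, and the 5 genes most correlated with Pxdn and with Vcan. Alternatives were the offset, Agilent's processed intensities, the authors' log2 table, no dye term, the dye effect subtracted first, median centring, only probes above background, separate colours, only the arrays compared, the mean of a gene's probes, and each array left out. The statistic was tested on simulated data. The smallest possible permutation p with 2 arrays is too large for a test of single values.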

Additional observations from a re-analysis of the deposited data

Results flagged for a closer look

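The wild-type level of Sparc on Sox11 cKO replicate 2, 14.22, lay apart from the other 5 wild-type levels, the gap being a share of 0.844 of the whole range; about 1 in 20 such groups is marked by chance. Its ratio on that array was 1.66.

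Several listed matrix genes had fold changes that differed between genotypes by a test of the difference. Col4a5 differed between dcKO and Sox4 cKO by 2.44 (limma adjusted p = 0.00781) and between dcKO and Sox11 cKO by 3.35 (limma adjusted p = 0.00337). Its knockout levels overlapped, at 7.31 and 5.92 in dcKO, 5.76 and 6.80 in Sox4 cKO and 5.18 and 7.09 in Sox11 cKO. Its wild-type levels were 5.15 and 4.76 on the dcKO arrays, neither well above background, and reached 9.37 on Sox11 cKO replicate 2. The part of that wild-type spread in the Col4a5 differences was not tested. Ltbp3 was lower in dcKO by -2.43 against Sox4 cKO (limma adjusted p = 0.0264) and by -2.35 against Sox11 cKO (limma adjusted p = 0.0326). Pcolce2 differed by -3.83 between dcKO and Sox4 cKO (limma adjusted p = 0.0169). Tll1 differed by 1.45 between dcKO and Sox4 cKO (limma adjusted p = 0.0332), a size under the fold threshold of 1.5.

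Fkbp10 differed by 1.92 between dcKO and Sox4 cKO (limma adjusted p = 0.0189), by -1.75 between dcKO and Sox11 cKO (limma adjusted p = 0.0275) and by 3.67 between Sox11 cKO and Sox4 cKO (limma adjusted p = 0.00991). Its wild-type levels were 13.51 and 13.73 on the Sox4 cKO arrays and 6.95 to 11.26 on the others; the part of that spread in the differences was not tested.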

How the results depend on the processing

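Over all probes, 78 were called in Sox4 cKO, 48 in Sox11 cKO and 421 in dcKO, 313 in dcKO minus Sox4 cKO, 250 in dcKO minus Sox11 cKO and 183 in the departure from additivity; of the 10 genes, 0, 0, 3, 1, 1 and 1. The 1 in each of the last 3 was Pxdn on its brightest probe, a description. In that order, an offset of 50 gave 3, 0, 78, 0, 0 and 0 probes, with 1 member in dcKO and 0 in each of the 3 differences. Agilent's processed signals gave 0 probes and 0 members in every comparison. The authors' table gave 122, 94, 484, 546, 492 and 620 probes, with 2 members in each of dcKO minus Sox4 cKO and dcKO minus Sox11 cKO. Without the replicate block (the dye term), 35, 18, 301, 97, 88 and 41 probes were called and 0 members in additivity. Subtracting the dye effect first gave 36 in Sox4 cKO and 345 in additivity. Median centring gave 720 in dcKO, 121 of them higher against 174 of 421, and 1118, 827 and 1189 in the 3 differences, with 2 members in each of the first pair. Only probes above background gave 23 in Sox4 cKO, 21 in Sox11 cKO, and 158, 106 and 36 in the 3 differences, with 0 members in additivity. Separate colours gave 9 in Sox4 cKO, 26 in Sox11 cKO, 114 in dcKO minus Sox4 cKO and 67 in additivity. Only the arrays compared gave 185 in Sox4 cKO, 0 in Sox11 cKO and 812 in dcKO minus Sox4 cKO, with 2 members in each difference. The mean of a gene's probes left 0 members in additivity.

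Leaving out 1 array gave 0 to 185 probes in Sox4 cKO, 49 to 793 in Sox11 cKO, 124 to 549 in dcKO, 21 to 812 and 32 to 1531 in dcKO minus Sox4 cKO and minus Sox11 cKO, and 10 to 1909 in additivity. Members called ran from 0 to 2 in Sox11 cKO, 1 to 3 in dcKO, 0 to 2 and 0 to 3 in the differences from Sox4 cKO and Sox11 cKO, and 0 to 3 in additivity; a genotype left with 1 array is assumed to vary like the others.

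The Pxdn dcKO value ran from -7.13 with processed signals to -3.95 for the mean of its probes, that of Vcan from -2.42 to -1.49 and that of Pcolce from -1.80 to -0.66, all negative. Signs turned for values that were uncalled with all arrays, most of them small, and the cause was not tested. The largest was Sparc in Sox4 cKO, at -1.18. Col4a1 in dcKO became -0.54 with median centring, -0.008 with an offset of 50 and -0.087 with separate colours, and Col4a2 in dcKO -0.09 with median centring. Loxl2 became -0.10 in Sox11 cKO with the mean of its probes and -0.24 in dcKO with median centring. With processed signals Lox in Sox11 cKO became 0.029 and Tnc in Sox11 cKO -0.14. Leaving out 1 array, Col4a1 ran from -0.73 to 0.20 in Sox4 cKO and -0.052 to 0.067 in dcKO, Loxl2 from -0.13 to 0.039, -0.13 to 0.19 and -0.14 to 0.35 in Sox4 cKO, Sox11 cKO and dcKO, Sparc from -2.46 to 0.11 in Sox4 cKO and -0.91 to 2.10 in Sox11 cKO, and Tnc from -1.19 to 0.44, -0.21 to 0.23 and -1.61 to 0.46 in the 3 genotypes. The median dcKO value of all named genes moved from -0.01 to 0.12 with processed signals. Dim probes such as Lox and Pcolce carry little signal over background, which limits what these arrays show for them.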

Other observations

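Adamts1, a proteinase that cleaves versican, had the widest ratios among the versican and hyaluronan genes in Sox11 cKO. The 2 Sox11 cKO ratios of Adamts1 were -2.54 and -5.53 (mean -4.03 ± 2.11, limma adjusted p = 0.0742), those of Sox4 cKO were -1.83 and -1.25, and those of dcKO were 0.75 and 1.36. The 4 arrays of the knockouts of 1 factor were negative and the 2 dcKO arrays positive. It was picked out after its values were seen, and its Sox11 cKO value did not pass the threshold.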
